A study of Mus musculus with 8 samples.

Results

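*Ddit4*, *Cebpd*, *Cebpb*, *Fkbp5*, *Klf15*, *Klf9*, *Tsc22d3*, *Nr3c1* and *Zbtb16* were followed in the RNA of tibialis anterior (TA) muscles from WT and KL-/- mice. The glucocorticoid receptor is the product of *Nr3c1*, and the other 8 genes are targets whose transcription it is known to raise, several of them in skeletal muscle. The 9 genes were taken by symbol from the table of counts per gene, which holds 12551 genes, and all 9 are in it and passed the filter on low counts. They were picked with their difference between WT and KL-/- muscle already known. Because the genes were chosen by the measured fold changes between genotypes in these same samples, that difference is given below as a description of each gene and is used to support nothing. Their standard errors and their side of the FDR threshold are likewise descriptions.

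The samples were whole TA muscles of male mice aged 7 weeks, 4 WT (Klotho wt/wt, labelled wild-type) and 4 KL-/- (Klotho null/null, labelled Kl knockout). Klotho is an anti-aging protein made mostly in the kidney and is the co-receptor through which FGF23 controls phosphate and vitamin D. The deletion is germline and affects the whole body, on a mixed strain background, so the muscles come from animals in which other organs lack Klotho too. *Kl* itself is not among the 12551 genes, so genotype rests on the labels. Counts on genes were 20860262 to 26501093 per WT library and 22061526 to 29273758 per KL-/- library. The batch label of KL-/- replicate 3 differs from that of the remaining 7 libraries, so for this animal batch and individual cannot be told apart. Each sample has its own number and library name in the labels, and the errors given are the spread between these samples. Levels are CPM, counts scaled by library size, after TMM normalization, and fold changes are KL-/- over WT on the log2 scale with their standard error (SE).

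Glucocorticoids enter the cell and bind the receptor, which waits in the cytoplasm in a complex with HSP90 and co-chaperones. The bound receptor moves to the nucleus and binds glucocorticoid response elements, palindromes of the hexamer TGTTCT, often far from the genes they control. In muscle the hormone slows protein synthesis and raises protein and amino acid breakdown, during fasting, stress and under drug treatment. *Ddit4* (REDD1) restrains mTORC1, the kinase complex that drives protein synthesis. *Cebpd* and *Cebpb* encode basic leucine zipper transcription factors, and *Klf15* and *Klf9* encode zinc finger factors, *Klf15* being known for its control of amino acid breakdown enzymes. *Fkbp5* encodes a co-chaperone that lowers the receptor's affinity for hormone, *Tsc22d3* (GILZ) a leucine zipper protein that mediates anti-inflammatory effects, and *Zbtb16* (PLZF) a zinc finger repressor. Neither corticosterone nor receptor binding was measured in these libraries.

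Promoters of 4 of these genes are shown because the genes share a known regulator. RefSeq promoters (GRCm38.p6, the assembly of mm10) were matched for 6 of the 9 genes, *Ddit4*, *Cebpb*, *Fkbp5*, *Klf15*, *Klf9* and *Tsc22d3*, the last with 3 start sites, which gave 8 promoters. Each sequence is the 250 bases before the start site, 5′ to 3′ on the gene's strand, and capitals mark matches to the motifs searched. The first is *Ddit4* (chr10:59951771-59952020, minus strand), the second *Fkbp5* (chr17:28486150-28486399, minus strand), the third *Klf15* (chr6:90462326-90462575, plus strand) and the last the most upstream start of *Tsc22d3* (chrX:140600523-140600772, minus strand).
Ddit4: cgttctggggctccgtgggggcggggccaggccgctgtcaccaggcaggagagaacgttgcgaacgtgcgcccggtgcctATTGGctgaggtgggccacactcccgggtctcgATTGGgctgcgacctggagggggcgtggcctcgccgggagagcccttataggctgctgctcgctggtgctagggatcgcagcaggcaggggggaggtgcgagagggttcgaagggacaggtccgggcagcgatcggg
Fkbp5: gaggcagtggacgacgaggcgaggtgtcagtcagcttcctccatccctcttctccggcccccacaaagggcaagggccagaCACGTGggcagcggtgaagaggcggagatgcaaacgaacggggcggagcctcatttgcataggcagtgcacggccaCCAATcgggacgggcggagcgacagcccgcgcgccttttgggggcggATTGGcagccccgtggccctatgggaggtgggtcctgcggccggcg
Klf15: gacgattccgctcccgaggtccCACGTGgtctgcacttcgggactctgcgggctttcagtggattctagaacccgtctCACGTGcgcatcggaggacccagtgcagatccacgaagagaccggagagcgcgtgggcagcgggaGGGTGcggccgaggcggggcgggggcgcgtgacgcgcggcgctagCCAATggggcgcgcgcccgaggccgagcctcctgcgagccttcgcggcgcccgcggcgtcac
Tsc22d3: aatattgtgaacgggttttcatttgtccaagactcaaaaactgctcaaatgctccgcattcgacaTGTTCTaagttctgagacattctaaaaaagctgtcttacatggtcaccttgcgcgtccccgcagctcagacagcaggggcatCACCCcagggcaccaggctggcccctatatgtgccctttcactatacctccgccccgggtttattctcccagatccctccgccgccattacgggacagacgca

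Letters searched on both strands were the full response element (AGAACA, 3 bases of any kind and TGTTCT), its core ACANNNTGT and its hexamer TGTTCT (both of which lie within the full element), the C/EBP palindrome TTGCGCAA, the CCAAT box, the CACCC box that KLF factors can bind and the E-box CACGTG that clock factors can bind. The full element was in 0 of the 8 promoters, against 0.00913% of all 32851 promoters of the same length, and its core in 0 of 8, against 5.84%. The hexamer was in 1 of 8, the *Tsc22d3* promoter shown above, 185 bases before the start, against 16.1% of all promoters. TTGCGCAA was in 0 of 8, against 0.164%. CCAAT was in 4 of 8, those of *Ddit4*, *Fkbp5*, *Klf15* and *Klf9*, against 33.8%, and the *Ddit4* promoter holds it on the other strand at 170 and 137 bases before the start. CACCC was in 5 of 8, against 52.0%. CACGTG was in 2 of 8, *Klf15* with matches at 228 and 172 bases and *Fkbp5* with a match at 169 bases before the start, against 6.02%. The promoters of *Ddit4*, *Cebpb*, *Fkbp5*, *Klf15* and *Klf9* were rich in G and C, at 70%, 81.6%, 68%, 72% and 59.6%, where the median of all promoters was 52.4%. Those of *Tsc22d3* were at 58.4%, 49.2% and 52.4%. A match is a stretch of letters in this window and not a binding site, and its absence says nothing of elements elsewhere.

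*Nr3c1*, the receptor (chromosome 18, 39410545 to 39487245 of mm10, minus strand), was at 126, 126, 119 and 108 CPM in WT replicates 1 to 4 and at 136, 117, 124 and 114 CPM in KL-/- replicates 1 to 4. The genotypes overlapped, although KL-/- replicate 1 was above every WT sample, and the spread within each was small. Its means were 120 ± 8.45 and 123 ± 9.81 CPM (SD, n = 4 each), a log2 fold change of 0.04 with an SE of 0.08. The sign turned when libraries were scaled by their totals alone, without TMM factors (log2 fold change -0.08).

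*Fkbp5* (chromosome 17, 28398753 to 28486149, minus strand), the co-chaperone, was at 43.5, 29.0, 23.2 and 36.0 CPM in WT replicates 1 to 4 and at 103, 32.4, 135 and 78.4 CPM in KL-/- replicates 1 to 4. KL-/- replicates 1, 3 and 4 were above every WT sample, but KL-/- replicate 2 lay inside the WT range. The log2 fold change was 1.40 (SE 0.37) between means of 32.9 ± 8.79 and 87.0 ± 43.1 CPM (SD, n = 4 each), and it was 1.69 with KL-/- replicate 2 left out and 1.12 with KL-/- replicate 3 left out.

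*Ddit4* (chromosome 10, 59949675 to 59951770, minus strand), the inhibitor of mTORC1, was at 9.43, 9.25, 6.06 and 5.41 CPM in WT replicates 1 to 4 and at 17.0, 16.1, 141 and 41.5 CPM in KL-/- replicates 1 to 4. Every KL-/- sample was above every WT sample, and the KL-/- samples themselves ran from just above the WT range to far beyond it. The highest value, in KL-/- replicate 3, is also that of the library with the other batch date. The WT mean was 7.54 ± 2.10 CPM and the KL-/- mean 54.0 ± 59.4 CPM (SD, n = 4 each). The log2 fold change of 2.85 (SE 0.68) ranked 3 of 12551 genes, and it was 1.73 without KL-/- replicate 3, in libraries of a single batch date. The SD of *Ddit4* over the 4 KL-/- samples, 1.46 on the log2 CPM scale, was wider than that of 99.6% of the 12551 genes, and its SD over the 4 WT samples, 0.41, was wider than that of 89.4%.

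*Cebpd* (chromosome 16, 15887286 to 15889545, plus strand) was at 8.53, 10.1, 6.79 and 5.41 CPM in WT replicates 1 to 4 and at 17.3, 21.0, 64.9 and 55.5 CPM in KL-/- replicates 1 to 4. The KL-/- samples formed a lower pair, replicates 1 and 2, and a higher pair, replicates 3 and 4, all above the WT samples. Means were 7.70 ± 2.04 and 39.7 ± 24.1 CPM (SD, n = 4 each), a log2 fold change of 2.37 (SE 0.43) that was 2.03 without KL-/- replicate 3. *Spidr* shares 321 exon bases with it on the other strand in the counted annotation, 14.2% of the counted length of *Cebpd*, and whether counting used strand is not given in the sources used here. *Spidr* was at 1.53 to 1.82 CPM across all 8 samples.

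*Cebpb* (chromosome 2, 167688915 to 167690432, plus strand) was at 39.7, 30.1, 25.0 and 28.2 CPM in WT replicates 1 to 4 and at 52.6, 48.5, 84.2 and 57.0 CPM in KL-/- replicates 1 to 4. The genotypes did not overlap, and KL-/- replicate 3 was again highest. Means of 30.7 ± 6.33 and 60.6 ± 16.1 CPM (SD, n = 4 each) gave a log2 fold change of 0.98 (SE 0.19).

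*Klf15* (chromosome 6, 90462626 to 90475209, plus strand) was at 54.1, 37.2, 34.2 and 37.0 CPM in WT replicates 1 to 4 and at 56.9, 45.7, 82.2 and 85.4 CPM in KL-/- replicates 1 to 4. WT replicate 1 stood above the other WT samples and above KL-/- replicate 2, so the genotypes overlapped. The log2 fold change was 0.73 (SE 0.21) between 40.6 ± 9.06 and 67.5 ± 19.4 CPM (SD, n = 4 each).

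*Klf9* (chromosome 19, 23141226 to 23166911, plus strand) was at 216, 207, 182 and 224 CPM in WT replicates 1 to 4 and at 259, 232, 315 and 271 CPM in KL-/- replicates 1 to 4. No KL-/- sample fell into the WT range, but KL-/- replicate 2 was just above WT replicate 4. The log2 fold change of 0.38 (SE 0.10) was small beside those of *Ddit4* and *Cebpd*, between means of 207 ± 18.3 and 269 ± 34.7 CPM (SD, n = 4 each).

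*Tsc22d3* (chromosome X, 140539529 to 140600522, minus strand), the gene of the anti-inflammatory mediator GILZ, was at 209, 159, 122 and 147 CPM in WT replicates 1 to 4 and at 149, 156, 273 and 225 CPM in KL-/- replicates 1 to 4. KL-/- replicates 1 and 2 sat in the middle of the WT range, and KL-/- replicates 3 and 4 above it. The log2 fold change was 0.34 (SE 0.21) between 159 ± 36.4 and 201 ± 59.2 CPM (SD, n = 4 each), and 0.15 without KL-/- replicate 3.

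*Zbtb16* (chromosome 9, 48654297 to 48835945, minus strand), the zinc finger repressor, was at 49.2, 48.4, 49.9 and 49.1 CPM in WT replicates 1 to 4 and at 137, 77.8, 116 and 73.7 CPM in KL-/- replicates 1 to 4. The WT samples were nearly equal, and all KL-/- samples were above them. Its SD over the WT samples, 0.019 on the log2 CPM scale, was wider than that of 0.398% of genes, whereas its SD over the KL-/- samples, 0.44, was wider than that of 88.7%. Means were 49.2 ± 0.642 and 101 ± 30.7 CPM (SD, n = 4 each), a log2 fold change of 1.04 (SE 0.18).

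**Figure D1:**
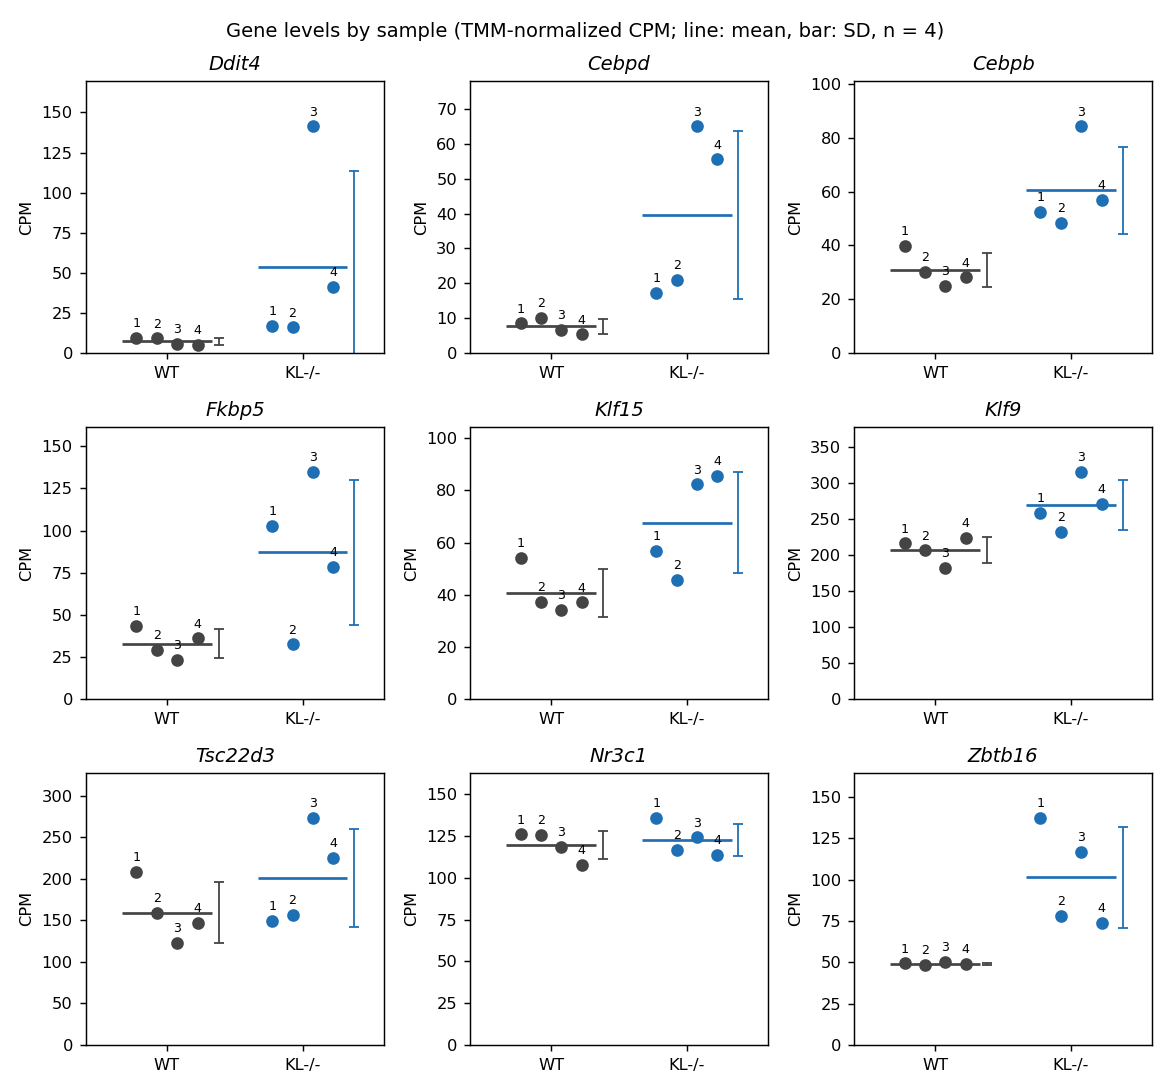
Each panel plots the TMM-normalized CPM of a gene in the 4 WT (grey) and 4 KL-/- (blue) muscles, with replicate numbers beside the points, the mean as a line and the SD as a bar, from an axis that starts at 0 and cuts the lower end of the *Ddit4* bar in KL-/- muscle. *Ddit4* reaches 141 CPM in KL-/- replicate 3, and the WT points of *Zbtb16* lie within 48.4 to 49.9 CPM. The genotypes overlap in *Nr3c1*, *Fkbp5*, *Klf15* and *Tsc22d3*.

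With edgeR's quasi-likelihood test over all 12551 genes, 14.0% of genes had an FDR under 0.05, 7.35% higher and 6.67% lower in KL-/- muscle. Of the 9 genes, 7 were on the higher side of that threshold (all but *Tsc22d3* and *Nr3c1*) and 0 on the lower side, and in 5 (*Ddit4*, *Cebpd*, *Cebpb*, *Klf9* and *Zbtb16*) every KL-/- sample was above every WT sample, as in 10.2% of all genes. In 0 of the 9 was every KL-/- sample below every WT sample, as in 9.47% of all genes. Since the genes were chosen with this difference in view, these counts say only what was chosen. The count of 7 was 3 without WT replicate 2, WT replicate 3 or KL-/- replicate 4, and 4 without WT replicate 4, KL-/- replicate 1 or KL-/- replicate 3.

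Levels of different genes were compared only as CPM per kilobase of the counted gene length. In WT muscle *Klf9* (63.5) and *Tsc22d3* (60.1) were the most abundant transcripts of the 9, followed by *Cebpb* (20.3), *Nr3c1* (18.9) and *Klf15* (17.7), then *Zbtb16* (9.61) and *Fkbp5* (8.47), and last *Ddit4* (4.47) and *Cebpd* (3.41). Within each of these 4 sets the ranges of the WT samples overlapped, and between neighbouring sets they did not. In KL-/- muscle the order by mean was *Klf9* (82.6), *Tsc22d3* (75.8), *Cebpb* (39.9), *Ddit4* (32.0), *Klf15* (29.4), *Fkbp5* (22.4), *Zbtb16* (19.8), *Nr3c1* (19.4) and *Cebpd* (17.6 CPM per kilobase). *Ddit4* ran from 9.54 to 83.9 CPM per kilobase over the KL-/- samples, a range that overlaps those of the other 8 genes. In whole muscle, fewer cells of a type and less RNA per cell cannot be told apart for any of these levels.

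The KL-/- samples differed among themselves in these genes. Median distance of the 9 genes from their WT means was 0.79, 0.19, 1.24 and 0.91 on the log2 CPM scale in KL-/- replicates 1 to 4, against -0.010, -0.0016, -0.024 and -0.013 for all genes. KL-/- replicate 3 had the highest KL-/- value in 6 of the 9 genes and KL-/- replicate 2 the lowest in 5 of the 9. The order was not shared by all of them: *Nr3c1* and *Zbtb16* were highest in KL-/- replicate 1, *Klf15* was highest in KL-/- replicate 4, and the lowest KL-/- sample was replicate 1 for *Cebpd* and *Tsc22d3* and replicate 4 for *Nr3c1* and *Zbtb16*. With KL-/- replicate 3 left out, the median log2 fold change of the 9 genes was 0.78, against 0.98 with all samples.

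**Figure D2:**
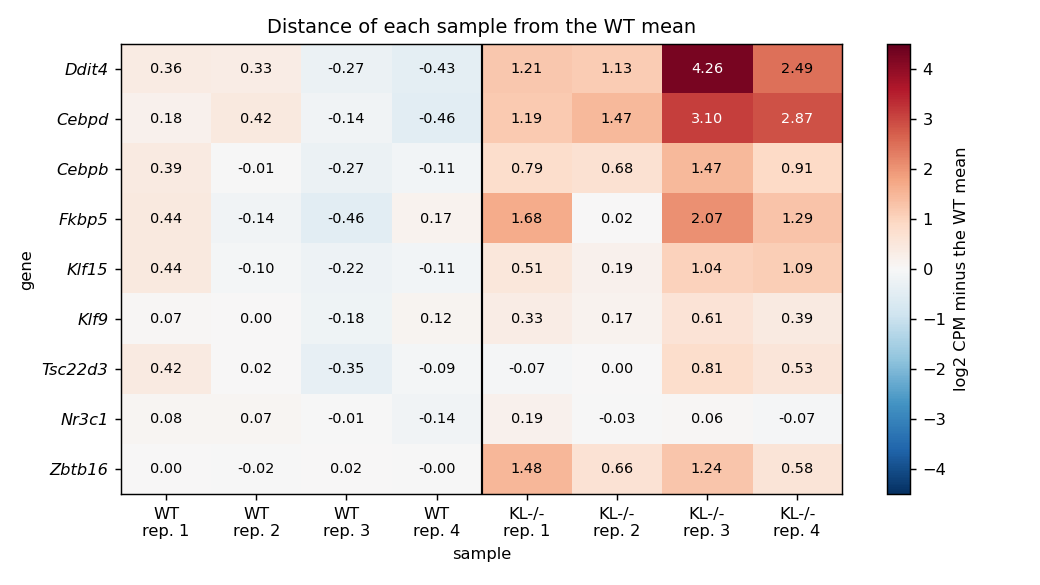
Rows are the 9 genes, columns the 8 samples, and each cell gives log2 CPM minus the mean of the WT samples, in red above it and blue below it. *Ddit4* and *Cebpd* stand farthest above WT in KL-/- replicates 3 and 4, and *Zbtb16* and *Fkbp5* in KL-/- replicate 1. The palest cells of the KL-/- replicate 2 column are those of *Tsc22d3*, *Fkbp5* and *Nr3c1*.

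After each genotype's mean was subtracted, so that the difference between genotypes played no part, log2 CPM of *Ddit4* over the 8 samples had a Pearson correlation of 0.90 with *Cebpd*, 0.86 with *Tsc22d3*, 0.86 with *Cebpb*, 0.76 with *Klf9*, 0.74 with *Klf15* and 0.62 with *Fkbp5*. It was 0.13 with *Zbtb16* and 0.07 with *Nr3c1*. The 8 points share their libraries, and KL-/- replicate 3 holds the extreme value of *Ddit4*, so these correlations are descriptions without a test. Among genes outside the 9 that averaged 0 or more on the log2 CPM scale, the pattern most like that of *Ddit4* was that of *Serinc3* (0.98), *Plekha3* (0.97), *Pcbp4* (0.97), *Rps2* (0.97) and *Sik1* (0.96), a salt-inducible kinase. *Sik1* was at 8.86, 10.8, 10.4 and 8.36 CPM in WT replicates 1 to 4 and at 15.6, 16.9, 60.0 and 28.1 CPM in KL-/- replicates 1 to 4. It followed the order of *Ddit4* closely, low in KL-/- replicates 1 and 2 and highest in KL-/- replicate 3. *Cebpd* was most like *Zfp784* (0.98), *Nfkbia* (0.97), *Rhob* (0.97), *Fam117b* (0.97) and *Med8* (0.96), of which *Nfkbia* and *Rhob* are also in the list of other glucocorticoid target genes below.

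Of a list of 34 other genes known as glucocorticoid targets, 32 are in the table (all but *Lcn2* and *Tat*). With an FDR under 0.05, 9 were higher and 1 was lower in KL-/- muscle and 22 did not pass, a share of 31.2% where that of all genes was 14.0%. Their median log2 fold change was 0.56 (0.44 with library totals), where that of all genes was -0.016 (-0.13 with library totals). 25 of the 32 had a positive log2 fold change. This list and those that follow were, like the 9 genes, chosen with earlier results of these data known. Their shares and medians are therefore descriptions and test nothing. The count of 10 depended on single samples. It was 2 without WT replicate 2, 3 without WT replicate 3, 4 without KL-/- replicate 3, 6 without WT replicate 4 or KL-/- replicate 4 and 16 without KL-/- replicate 2. Median distances of the list from the WT means were 0.37, 0.25, 0.86 and 0.61 on the log2 CPM scale in KL-/- replicates 1 to 4, so the list too was highest in replicate 3 and lowest in replicate 2.

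*Per1*, a clock repressor that the receptor also induces (chromosome 11, 69098956 to 69109957), was at 51.1, 36.3, 11.2 and 40.9 CPM in WT replicates 1 to 4 and at 68.1, 126, 213 and 165 CPM in KL-/- replicates 1 to 4. It rose with no overlap (log2 fold change 2.04, SE 0.45, FDR = 0.0202), but the FDR was above 0.05 without WT replicate 2, KL-/- replicate 3 or KL-/- replicate 4. *Glul*, the glutamine synthetase gene (chromosome 1, 153899929 to 153909723), was at 176, 92.9, 80.1 and 88.1 CPM in WT replicates 1 to 4 and at 318, 176, 562 and 345 CPM in KL-/- replicates 1 to 4. It was again highest in KL-/- replicate 3, and KL-/- replicate 2 was level with WT replicate 1. It rose by a log2 fold change of 1.68 (SE 0.35, FDR = 0.0165). *Map3k6*, a stress-activated kinase gene (chromosome 4, 133240818 to 133252928), had means of 3.32 ± 1.07 and 11.2 ± 5.76 CPM and rose by a log2 fold change of 1.76 (FDR = 0.0165). Neither *Glul* nor *Map3k6* had an FDR under 0.05 without WT replicate 2 or WT replicate 3.

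*Pik3r1*, the regulatory subunit of phosphoinositide 3-kinase (chromosome 13, 101680761 to 101768217), was at 37.9 to 42.5 CPM in WT and at 106, 45.7, 130 and 62.9 CPM in KL-/- replicates 1 to 4 (log2 fold change 1.10, SE 0.28, FDR = 0.0306). Like *Zbtb16*, it was nearly level among WT samples and led by KL-/- replicates 1 and 3. *Nfkbia*, the gene of the NF-kappaB inhibitor IkappaB-alpha (chromosome 12, 55489409 to 55492647), had means of 18.7 ± 1.79 and 35.9 ± 12.8 CPM and rose by a log2 fold change of 0.94 (FDR = 0.0254). Of the 8 fits that left out 1 sample, *Pik3r1* had an FDR under 0.05 only without KL-/- replicate 2 or KL-/- replicate 4, and *Nfkbia* only without KL-/- replicate 1 or KL-/- replicate 2. *Anxa1*, the annexin that mediates anti-inflammatory effects of the hormone (chromosome 19, 20373434 to 20390671), fell from 13.6 ± 2.68 to 7.09 ± 2.06 CPM (log2 fold change -0.94, FDR = 0.0226), and did not pass without WT replicate 2, WT replicate 3 or KL-/- replicate 3.

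Among targets that did not pass, *Arrdc2* and *Mt2* had the highest log2 fold changes. Other targets that did not pass ran from large positive to negative values. *Hif3a* (1.61), *Mt1* (1.31) and *Pck1* (1.29) were next highest. Values were small for *Sgk1* (0.09), *Trim63* (0.14) and *Fbxo32* (0.17) and negative for *Pdk4* (-0.35) and *Angptl4* (-0.67). Of all 32 targets, 25 had a positive and 7 a negative log2 fold change. *Arrdc2*, an arrestin domain gene, was at 59.2, 13.2, 9.11 and 8.57 CPM in WT replicates 1 to 4 and at 25.9, 53.8, 226 and 218 CPM in KL-/- replicates 1 to 4 (log2 fold change 2.54, SE 0.83, FDR = 0.0689). WT replicate 1 exceeded KL-/- replicates 1 and 2, and without it the log2 fold change was 3.67 (FDR = 0.0263). *Mt2*, a metallothionein, was at 1.84, 2.22, 1.22 and 1.15 CPM in WT replicates 1 to 4 and at 5.30, 1.96, 23.5 and 3.58 CPM in KL-/- replicates 1 to 4 (log2 fold change 2.44, SE 0.75, FDR = 0.0575). KL-/- replicate 3 set that value, which was 1.21 without it.

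**Figure D3:**
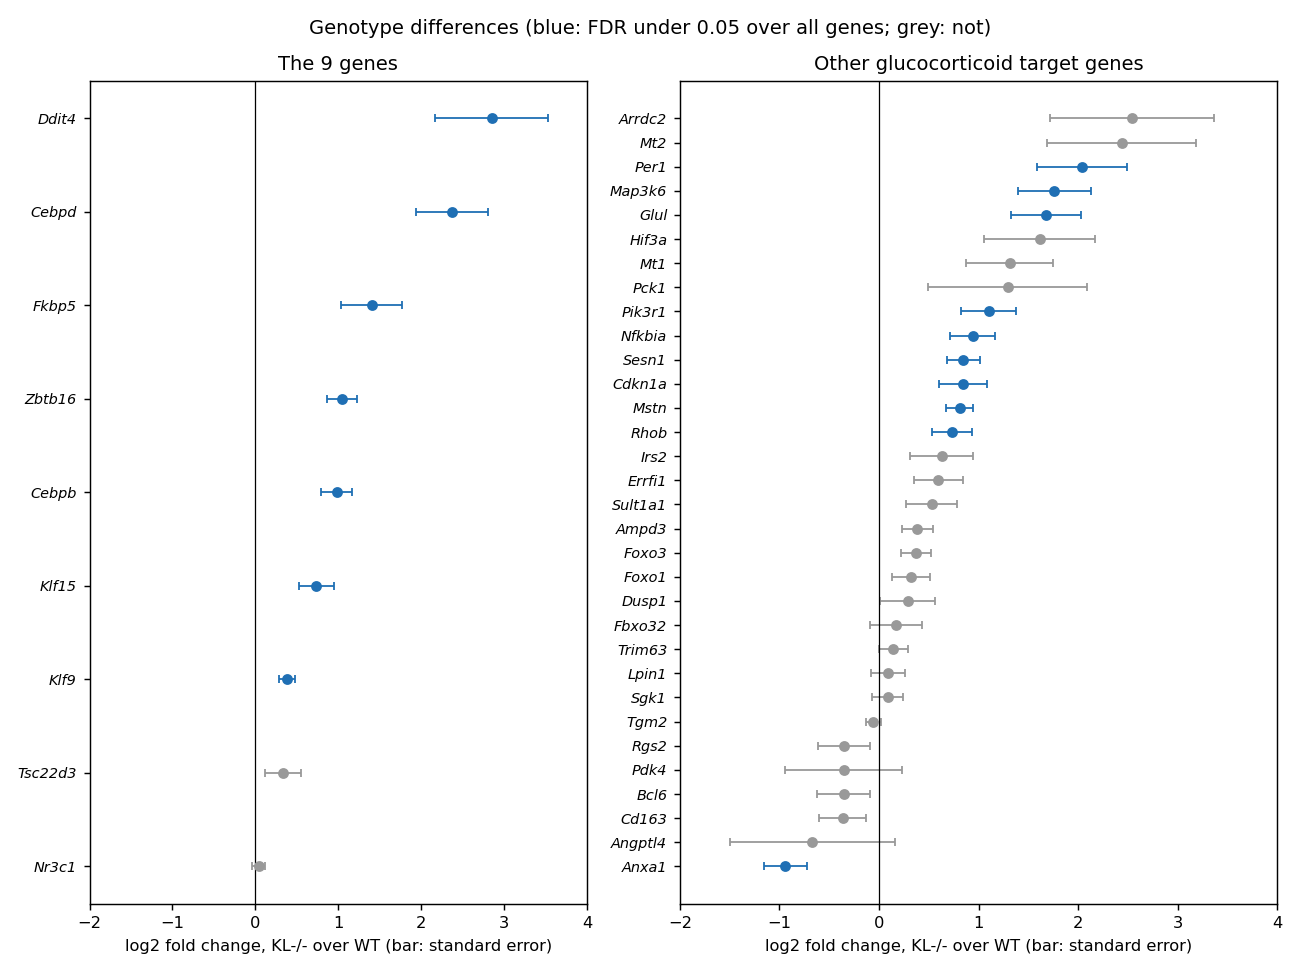
Points are log2 fold changes of KL-/- over WT and bars their standard errors, for the 9 genes on the left and the 32 other glucocorticoid targets on the right, blue where the FDR over all genes was under 0.05. *Ddit4* (2.85) and *Cebpd* (2.37) lead the left panel and *Nr3c1* (0.04) lies at 0. On the right 9 blue points lie above 0 and *Anxa1* (-0.94) below it, while *Arrdc2* and *Mt2* are far from 0 with wide bars and did not pass.

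Genes that activate, fold or assist the receptor showed no common direction. Of 25 measured (*Hsd11b2* is not in the table), 2 rose and 2 fell past the FDR threshold, 16% of the list against 14.0% of all genes. The median log2 fold change was -0.0027, which is 0.0044 with RLE factors. *Bag1*, a co-chaperone that can hold the receptor back (125 ± 7.09 in WT and 156 ± 12.1 CPM in KL-/- muscle, log2 fold change 0.33, FDR = 0.0189), and *Ncor1*, a corepressor (163 ± 4.99 and 194 ± 7.09 CPM, log2 fold change 0.25, FDR = 0.0162), rose. Neither passed with library totals. *Hsp90aa1*, the inducible HSP90 isoform (33.8 ± 3.24 and 25.7 ± 2.93 CPM, log2 fold change -0.39, FDR = 0.0321), and *Stip1*, the organizer that links HSP70 to HSP90 (110 ± 3.70 and 87.8 ± 5.80 CPM, log2 fold change -0.33, FDR = 0.0109), fell without overlap. *Stip1* passed in all 8 fits that left out 1 sample. *Hsp90aa1* passed only without WT replicate 2, KL-/- replicate 1 or KL-/- replicate 2, *Bag1* missed without WT replicate 3, KL-/- replicate 3 or KL-/- replicate 4, and *Ncor1* missed without WT replicate 2 or KL-/- replicate 4. *Hsd11b1*, the enzyme that regenerates active hormone within cells, was at 6.41, 7.91, 13.5 and 9.36 CPM in WT replicates 1 to 4 and at 5.02, 7.97, 3.27 and 4.45 CPM in KL-/- replicates 1 to 4 (log2 fold change -0.86, SE 0.29, FDR = 0.0744). *Nrip1*, a nuclear receptor corepressor, had a log2 fold change of 0.52 (FDR = 0.116). The count of 4 was 7 without KL-/- replicate 2, 2 without WT replicate 3 or KL-/- replicate 3 and 1 without KL-/- replicate 4.

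Relatives of the 9 genes were compared to see whether whole families moved. Of 26 paralogs measured (*Cebpe*, *Klf8* and *Fkbp1b* are not in the table), 2 were higher and 1 was lower with an FDR under 0.05. That was 11.5% of the list, against 14.0% of all genes, with a median log2 fold change of 0.067 that turned to -0.05 with library totals. *Klf6* rose from 32.7 ± 2.55 to 57.7 ± 16.6 CPM (log2 fold change 0.82, FDR = 0.0223) and, unlike *Ddit4*, was highest in KL-/- replicate 4. *Fkbp8*, of the same family as *Fkbp5*, rose by a log2 fold change of 0.23 (FDR = 0.0314), and *Zbtb7b* fell by 0.37 on the log2 scale (FDR = 0.0205). *Klf2* (log2 fold change 0.97, SE 0.43, FDR = 0.148) and *Fkbp7* (log2 fold change -0.56, FDR = 0.128) did not pass. *Klf6* passed only without WT replicate 4, KL-/- replicate 1 or KL-/- replicate 2, *Fkbp8* only without WT replicate 2 or KL-/- replicate 2, and *Zbtb7b* missed without WT replicate 3 or KL-/- replicate 4. The count of 3 was 5 without KL-/- replicate 2, 1 without WT replicate 1 or KL-/- replicate 3 and 0 without WT replicate 3 or KL-/- replicate 4.

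DDIT4 acts on mTORC1 through the TSC complex, and 21 genes of that control were measured (*Castor1* is not in the table). With an FDR under 0.05, 5 were higher and 1 was lower, 28.6% of the list against 14.0% of all genes. The median log2 fold change of 0.099 turned to -0.02 with library totals. *Eif4ebp1*, the repressor of cap-dependent translation that mTORC1 inactivates, was at 38.7, 34.3, 29.2 and 32.1 CPM in WT replicates 1 to 4 and at 69.4, 51.6, 76.7 and 68.9 CPM in KL-/- replicates 1 to 4 (log2 fold change 0.99, SE 0.13, FDR = 0.00307). *Sesn1*, a sestrin that restrains mTORC1 when leucine is low and that is also in the list of glucocorticoid targets, rose from 24.7 ± 3.70 to 44.5 ± 9.84 CPM (log2 fold change 0.85, FDR = 0.0125). Both passed in all 8 fits that left out 1 sample.

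Other steps of that pathway differed by less. *Akt1* (log2 fold change 0.44, FDR = 0.0415), *Tsc1* (0.34, FDR = 0.0231) and the S6 kinase gene *Rps6kb2* (0.26, FDR = 0.0483) were higher, and *Mlst8*, a subunit of both mTOR complexes, was lower (-0.31, FDR = 0.0273). The 3 higher genes did not pass with library totals. *Akt1* and *Rps6kb2* passed only without KL-/- replicate 2 among the fits that left out 1 sample, *Mlst8* only without WT replicate 2, KL-/- replicate 1 or KL-/- replicate 2, and *Tsc1* missed without WT replicate 2, WT replicate 3, KL-/- replicate 3 or KL-/- replicate 4. *Deptor*, an mTOR inhibitor (log2 fold change 0.37, FDR = 0.194), and *Akt2* (0.26, FDR = 0.0602) did not pass. The count of 6 was 2 without WT replicate 3, KL-/- replicate 3 or KL-/- replicate 4 and 3 when any other WT sample was left out.

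KLF15 is known to raise enzymes of amino acid breakdown. Of 8 genes linked to KLF15 and measured (*Tdo2* is not in the table), 3 rose and 0 fell past the FDR threshold. That was 37.5% of the list, against 14.0% of all genes, with a median log2 fold change of 0.24. The list is not limited to amino acid breakdown, as it also holds the glucose transporter gene *Slc2a4* and the aldehyde dehydrogenase gene *Aldh2*. *Prodh*, proline dehydrogenase, was at 9.27, 5.83, 3.81 and 7.32 CPM in WT replicates 1 to 4 and at 16.5, 11.3, 21.3 and 13.6 CPM in KL-/- replicates 1 to 4, without overlap (log2 fold change 1.26, SE 0.27, FDR = 0.0172). It was highest in KL-/- replicate 3, whereas *Klf15* itself was highest in KL-/- replicate 4. *Gpt2*, the mitochondrial alanine transaminase (338 ± 45.7 and 471 ± 48.8 CPM, log2 fold change 0.48, FDR = 0.0222), and *Aldh2*, an aldehyde dehydrogenase (125 ± 12.4 and 162 ± 6.65 CPM, log2 fold change 0.37, FDR = 0.0153), rose without overlap. *Bcat2*, the first enzyme of branched-chain amino acid breakdown (0.39, FDR = 0.0691), and *Gpt* (0.12, FDR = 0.611) did not pass. *Prodh* missed without WT replicate 2, and *Gpt2* without KL-/- replicate 3 or KL-/- replicate 4.

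*Ddit4* is also a target of the integrated stress response and of hypoxia factors, so those lists were read beside it. Of 13 integrated stress response genes measured (*Fgf21*, *Gdf15* and *Slc7a11* are not in the table), 1 was higher and 0 lower with an FDR under 0.05, 7.69% of the list against 14.0% of all genes. That gene was *Atf3*, a stress-induced transcription factor, at 1.63, 2.13, 2.94 and 3.19 CPM in WT replicates 1 to 4 and at 7.67, 3.20, 5.43 and 9.42 CPM in KL-/- replicates 1 to 4 (log2 fold change 1.38, SE 0.33, FDR = 0.0257). It was highest in KL-/- replicate 4 and passed only without WT replicate 4, KL-/- replicate 2 or KL-/- replicate 3. *Nupr1*, a stress-induced chromatin protein (log2 fold change -0.84, FDR = 0.0579), and *Cth*, a cysteine-producing enzyme (0.75, FDR = 0.126), did not pass. The count of 1 was 3 without KL-/- replicate 2, 2 without WT replicate 4 and 0 without WT replicate 2, WT replicate 3, KL-/- replicate 1 or KL-/- replicate 4.

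Of 14 hypoxia response genes, all measured, 0 passed the threshold of FDR 0.05 by the quasi-likelihood test of edgeR, which 14.0% of all genes passed. By that test 4 of the 14 had an unadjusted p under 0.05, as had 4031 of the 12551 genes. With the likelihood ratio test 1 passed the FDR threshold, and 1 with DESeq2. *Egln3*, an oxygen-sensing prolyl hydroxylase, was at 32.3, 25.1, 28.1 and 67.0 CPM in WT replicates 1 to 4 and at 111, 36.1, 120 and 76.3 CPM in KL-/- replicates 1 to 4 (log2 fold change 1.17, SE 0.40, FDR = 0.0787). WT replicate 4 exceeded KL-/- replicate 2. *Car9*, a carbonic anhydrase, was near 1 CPM (log2 fold change -0.69, FDR = 0.192). The count of 0 was 4 without KL-/- replicate 2 and 1 without WT replicate 4. Their median log2 fold change, 0.092, turned to -0.03 with library totals.

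Clock genes were read as well, because the receptor induces *Per1* and *Per2*, *Klf9* and *Klf15* follow the day in several tissues, and the hour at which muscles were taken is not given in the sources used here. All 17 were measured. With an FDR under 0.05, 7 were higher and 4 lower, 64.7% of the list against 14.0% of all genes. *Npas2* was at 1.22, 0.925, 4.04 and 1.33 CPM in WT replicates 1 to 4 and at 0.279, 0.143, 0.124 and 0.641 CPM in KL-/- replicates 1 to 4 (log2 fold change -2.61, SE 0.65, FDR = 0.0295). KL-/- replicates 2 and 3 held 3 counts of it each, so its level there is near the lower limit of these libraries and the size of its fold change is uncertain. *Arntl* (BMAL1), its partner, was at 16.9, 10.6, 23.4 and 20.4 CPM in WT replicates 1 to 4 and at 4.60, 3.86, 6.76 and 9.01 CPM in KL-/- replicates 1 to 4 (log2 fold change -1.55, SE 0.29, FDR = 0.0114). These activators of the loop fell, and their repressors *Per1* (above) and *Per2* rose. *Per2* was at 11.8, 8.88, 3.51 and 10.6 CPM in WT replicates 1 to 4 and at 29.95, 23.2, 31.4 and 26.5 CPM in KL-/- replicates 1 to 4 (log2 fold change 1.68, SE 0.29, FDR = 0.0085).

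WT replicate 3 was lowest in *Per1* and *Per2* and highest in *Arntl* and *Npas2* among WT samples, and it was also lowest in *Fkbp5*, *Cebpb*, *Klf15*, *Klf9* and *Tsc22d3*. The rest of the 9 genes had another order: *Ddit4*, *Cebpd* and *Nr3c1* were lowest in WT replicate 4, and *Zbtb16* was highest in WT replicate 3. *Nr1d1* (REV-ERBalpha), a repressor of *Arntl*, fell from 260 ± 29.7 to 125 ± 38.6 CPM (log2 fold change -1.06, FDR = 0.0107), and *Nfil3* rose from 10.8 ± 2.39 to 26.1 ± 15.2 CPM (log2 fold change 1.27, FDR = 0.0471). *Ciart* (1.35, FDR = 0.0893) and *Hlf* (0.58, FDR = 0.0938) did not pass. *Arntl*, *Per2* and *Nr1d1* passed in all 8 fits that left out 1 sample, *Npas2* missed without KL-/- replicate 1 or KL-/- replicate 3, and *Nfil3* passed only without KL-/- replicate 2. The count of 11 was 6 without KL-/- replicate 3 and 7 without KL-/- replicate 4. Whether the phase of the clock has a part in the values of the 9 genes was not tested.

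**Figure D4:**
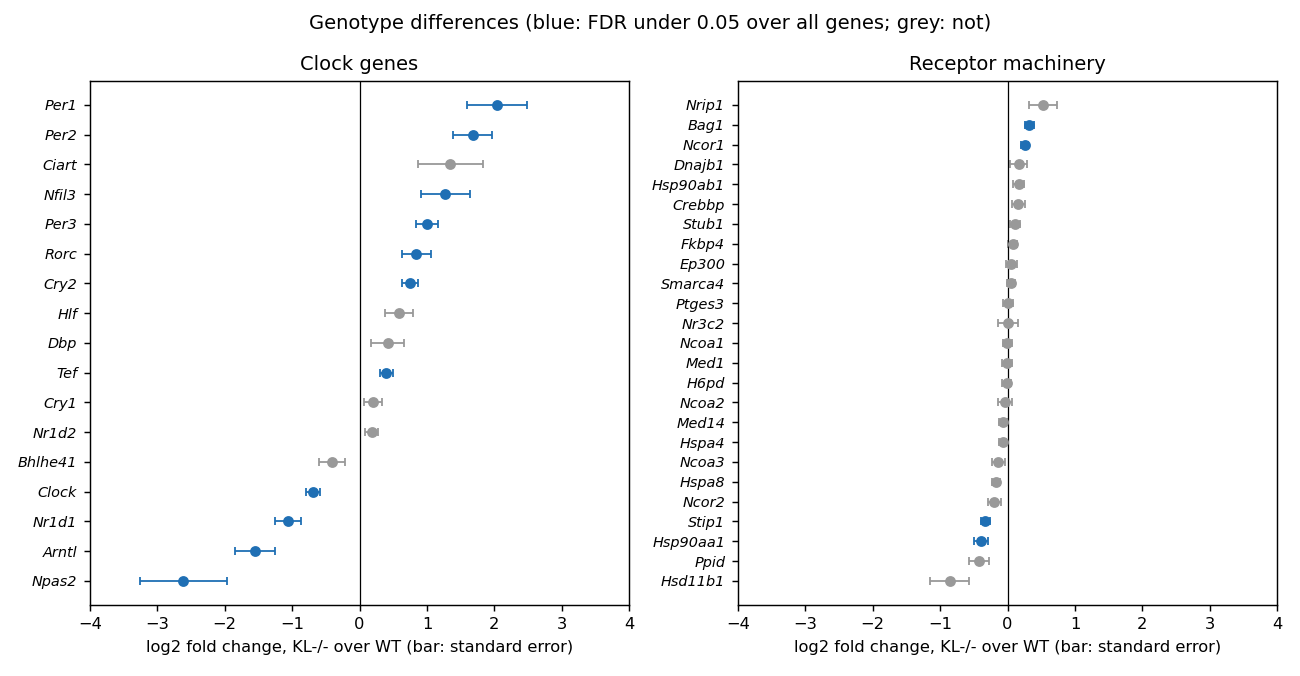
Points are log2 fold changes of KL-/- over WT and bars their standard errors for the 17 clock genes on the left and the 25 receptor machinery genes on the right, blue where the FDR over all genes was under 0.05. Clock genes spread from *Npas2* (-2.61) to *Per1* (2.04), whereas the machinery genes with an FDR under 0.05 stay between *Hsp90aa1* (-0.39) and *Bag1* (0.33).

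Marker genes placed all 8 samples as skeletal muscle. Markers given here as higher or lower are those with an FDR under 0.05, where 7.35% of all genes were higher and 6.67% lower. Of 10 skeletal muscle fibre genes, 1 was higher, and the 10 summed to 137903 to 159863 CPM in WT and 159812 to 207220 CPM in KL-/- samples. Of 6 adipocyte markers measured (*Plin1* and *Lep* are not in the table), 2 were higher. The 6 summed to 392 to 476 CPM in WT and 618 to 805 CPM in KL-/- samples. Their median distance from the WT means was 1.84, 1.05, -0.27 and 0.24 on the log2 CPM scale in KL-/- replicates 1 to 4. The sum therefore does not speak for each marker. Of 9 fibroblast markers, 3 were lower, with a sum of 948 to 3791 and 548 to 1708 CPM, and of 10 macrophage markers, 3 were lower, with a sum of 65.3 to 138 and 46.2 to 80.5 CPM. The log2 fold change was negative for all 9 fibroblast and 9 of the 10 macrophage markers, and for 6573 of all 12551 genes. Both sums were lowest in KL-/- replicates 3 (548 and 46.2 CPM) and 4 (770 and 46.4 CPM). Of 7 Schwann cell markers, 4 were higher (57.8 to 103 and 107 to 132 CPM). Sums were 496 to 721 and 481 to 505 CPM for 8 endothelial markers, 335 to 509 and 369 to 469 CPM for 7 pericyte and smooth muscle markers, and 3.47 to 9.72 and 3.91 to 9.84 CPM for the 2 of 9 blood markers in the table. The 9 genes are expressed in several of these cell types, and the part of cell composition in their values was not tested.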

How the data were processed

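RNA from TA muscles of 4 WT and 4 KL-/- mice was sequenced. The labels name total RNA and the study's methods mRNA sequencing. Per the study's methods, the authors ran FastQC, mapped the reads with STAR (mm10 assembly), left out poorly mapped ones and used featureCounts for counting on genes. The deposited values are these raw counts, without normalization, with the counted length of each gene. The annotation version and strand setting are not given in the sources used here.

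The 9 genes and all gene lists were chosen with earlier results of these data known. The analysis used edgeR 4.0.16 under R 4.3.3. No gene of the 12551 failed its default low-count filter. TMM factors, genotype as the only term, the quasi-likelihood test and Benjamini-Hochberg adjustment over all genes (FDR, threshold 0.05) were used. Log2 CPM used a prior count of 2. The tests were checked on simulated counts. Depth puts 3 counts at 0.105 to 0.143 CPM, a level at which *Npas2* lay in 2 libraries.

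Besides the 9 genes, the named genes are, from each list, up to 6 with an FDR under 0.05 and the largest absolute log2 fold change, the 2 with the largest absolute log2 fold change among those that did not pass and averaged 0 or more on the log2 CPM scale, and the 5 genes most like *Ddit4* and most like *Cebpd* that averaged 0 or more on that scale. A gene that shares exon bases with *Cebpd* on the other strand was also named, as were *Slc2a4* and some further glucocorticoid targets that did not pass. Alternatives were RLE factors, library totals, the likelihood ratio test, DESeq2 1.42.0, limma-voom (limma 3.58.1), no filter, at least 10 counts required per sample, a block for replicate number, and leaving out each sample. *Kl*, qRT-PCR values and reads were not analysed here.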

Additional observations from a re-analysis of the deposited data

Results flagged for a closer look

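In 106 groups of 4 samples, covering 53 genes that the report names, 7 groups held a sample whose gap to its nearest neighbour was a larger part of the group's range than the 95% critical value of Dixon's test for 4 samples. Chance flags about 1 in 20 groups. WT replicate 1 was that sample in 4 of the 7. In it *Klf15* was at 54.1 CPM where the other WT samples were at 34.2 to 37.2 CPM, *Glul* at 176 against 80.1 to 92.9 CPM, *Map3k6* at 4.9 against 2.63 to 3.01 CPM and *Arrdc2* at 59.2 against 8.57 to 13.2 CPM. In WT replicate 3, *Npas2* was at 4.04 CPM where the other WT samples were at 0.925 to 1.33 CPM. In KL-/- replicate 3, which has its own batch date, *Mt2* was at 23.5 CPM where the other KL-/- samples were at 1.96 to 5.30 CPM. In KL-/- replicate 2, *Stip1* was at 96.5 CPM where the others were at 84.8 to 85.2 CPM. *Klf15* is the only one of the 9 glucocorticoid-linked genes with such a sample among these groups.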

How the results depend on the processing

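Over all alternatives, 106 of 160 counts of genes with an FDR under 0.05 stayed within 1.5 times their value in the report and 54 did not. Of 847 fold changes of single genes, 675 kept their direction and their side of the threshold, 139 no longer passed, 30 newly passed and 3 turned in sign, all of them *Nr3c1*, at -0.079 with library totals, -0.00883 without WT replicate 4 and -0.00603 without KL-/- replicate 1, with a range of -0.00883 to 0.072 over the samples left out. Same-numbered WT and KL-/- samples did not deviate together (correlations of -0.15, 0.18, -0.37 and 0.017 over genes). Best agreement with the own number was seen in 1 of 4 WT and 0 of 4 KL-/- samples. No pairing by number was seen, but so few samples cannot show whether animals shared a litter or handling. With the replicate block, 671 genes passed against 1759, 3 of the 9 glucocorticoid-linked genes against 7, 5 other targets against 10, 0 machinery genes against 4, 1 paralog against 3 and 3 mTORC1 genes against 6. With limma-voom 4 of the 9 passed. Integrated stress response genes passed in 4 cases with library totals and 3 with the likelihood ratio test or DESeq2, against 1, and hypoxia genes in 1 with the likelihood ratio test or DESeq2, against 0. Leaving out 1 sample gave 762 to 2755 for all genes, 3 to 7 for the 9, 2 to 16 for other targets and 1 to 7 for machinery. It gave 0 to 5 for paralogs, 2 to 7 for mTORC1 control and 2 to 4 for KLF15-linked genes. For the integrated stress response it gave 0 to 3, for hypoxia 0 to 4 and for clock genes 6 to 12. Library totals moved the median of all genes to -0.13 and the share of higher genes among those that passed from 52.4% to 18.8% of 2619. Dropping the filter changed nothing, because the default filter removed no gene, and the cause of the other shifts was not tested. *Ddit4* kept a log2 fold change of 1.73 to 3.16 in the fits that left out 1 sample and 2.26 to 2.86 elsewhere.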
